A study of Homo sapiens with 4 samples.

Results

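The receptors EGFR, ERBB2 and ERBB3 and the ligands AREG, EREG, HBEGF and TGFA make up the group described here, the EGFR family signal on which MCF10A cells depend for growth. The members were chosen by gene symbol, and every listed crosslink site labelled with one of the 7 symbols was taken, whatever its score. They held 617 of the 270283 sites in the series, 330 with PDCD4 and 287 with IgG, and 6 of the 7 genes had at least 1 site among 14416 genes with any site. ERBB3 had no listed site, and no site of either strand or any label lay within its span.

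MCF10A is an untransformed human breast epithelial line, labelled wild type and grown in medium with horse serum, epidermal growth factor, insulin, hydrocortisone and cholera toxin, and all 4 samples were this line under these same conditions. RNA was crosslinked to protein in the cells by ultraviolet light and recovered with an antibody against PDCD4, an RNA-binding tumour suppressor, or with control IgG, by improved individual-nucleotide resolution CLIP (iCLIP). Each group had 2 samples, but the deposited list of each group merges them, so values per sample were not analysed here, PDCD4 and IgG were not tested against each other, and no p-value is given. A listed site is a single nucleotide, and its score is the number of cDNAs that ended there.

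The PDCD4 list held 158922 sites and 409308 cDNAs, and the IgG list 111361 sites and 276139 cDNAs, so levels are given per 10000 cDNAs of a list. All intervals are 95% intervals that cover counting error alone, not the spread between samples. The RNA level of each gene was not analysed here, and more binding per molecule and more molecules of an RNA cannot be told apart. Keratins and other epithelial markers had sites (8 of 8 genes, 965 cDNAs with PDCD4 and 298 with IgG), and none of 8 markers of blood, endothelial, stromal and muscle cells had a site in either list. Regions over all genes were counted per site label placed within its gene, 160939 with PDCD4 and 112882 with IgG. A site with several labels counts once for each. Of these labels, 20.6% with PDCD4 and 9.54% with IgG lay in coding sequence, and 51.1% and 67.3% in introns, which is the setting for every gene below.

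EGFR and its relatives are receptor tyrosine kinases of the cell surface. A ligand bound outside the cell brings receptors together in pairs, and their kinase domains then phosphorylate each other's tails and recruit adaptors that feed the RAS and PI3K routes. ERBB2 binds no known ligand and acts as a partner, while ERBB3 has little kinase activity of its own and passes the signal on through PI3K. Amphiregulin (AREG), epiregulin (EREG), heparin-binding EGF-like growth factor (HBEGF) and transforming growth factor alpha (TGFA) are made as membrane proteins, and a protease releases the part with the EGF-like fold. In breast epithelium AREG is known as the ligand that acts in growth of the ducts at puberty.

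Most of the coding PDCD4 sites of the group lay in exons 3, 4 and 5 of AREG, on the plus strand of chromosome 4, and the group's difference in coding share between the lists rested on AREG. Their coding sequences are printed from the GRCh38 genome with each nucleotide that was a PDCD4 site in capitals. Exon numbers follow the MANE transcript (the single reference transcript of each gene) in GENCODE 44.
AREG exon 3, chr4:74449047-74449248: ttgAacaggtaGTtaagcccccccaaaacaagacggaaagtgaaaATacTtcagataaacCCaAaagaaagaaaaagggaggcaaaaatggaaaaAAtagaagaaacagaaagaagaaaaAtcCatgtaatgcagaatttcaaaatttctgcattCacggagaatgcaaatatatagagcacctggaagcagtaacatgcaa
AREG exon 4, chr4:74450380-74450532: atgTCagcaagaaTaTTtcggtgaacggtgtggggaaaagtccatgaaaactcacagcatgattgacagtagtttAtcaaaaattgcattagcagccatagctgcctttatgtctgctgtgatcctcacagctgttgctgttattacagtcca
AREG exon 5, coding part, chr4:74452544-74452637: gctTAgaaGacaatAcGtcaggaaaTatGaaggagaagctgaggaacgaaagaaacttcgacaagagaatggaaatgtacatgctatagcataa

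Exon 3 held 14 PDCD4 sites in 202 nt, of which 6 were A, 4 were C, 3 were T and 1 was G. This exon is rich in A (48.5% of its bases), and several of its sites were adjacent nucleotides. For contrast, the sites of high score in the other members and an IgG site just before exon 3 of AREG are shown with 14 nt on each side, the crosslinked base in a capital and T for U.
AREG IgG site before exon 3, chr4:74449025-74449053: caataaatcttttcTtttttagttgaaca
AREG PDCD4 site at the start of exon 3, chr4:74449036-74449064: ttcttttttagttgAacaggtagttaagc
AREG highest IgG site, intron 4, chr4:74451314-74451342: ggaagttgggggagGacatgaatggctct
EGFR highest PDCD4 site, intron 1, chr7:55053647-55053675: gctcccagggccatCaccacacaaagtga
EGFR highest IgG site, intron 1, chr7:55100148-55100176: gcacgcatcctttcTacgatgcctgacag
EGFR highest PDCD4 site in the 3′UTR, chr7:55206690-55206718: aagatagttttctcCttttacttcacttc
ERBB2 PDCD4 site of score 4, intron 16, chr17:39720380-39720408: gagtcagggtggggTctgacctggatgcc
ERBB2 highest IgG site, exon 26, coding, chr17:39727420-39727448: caaggggctgcaaaGcctccccacacatg
TGFA PDCD4 site of score 4, intron 2, minus strand, chr2:70505976-70506004: agagacctgcagctAttttaatccagtga
EREG only PDCD4 site, intron 1, chr4:74370220-74370248: tcctatggccctgtCacaccacacatcac
HBEGF only site, intron 1, minus strand, chr5:140346241-140346269: cgacgcccccggagAtcggggggatgggg

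The IgG site in the first AREG window lies in the run of T just before exon 3, at position 74449039, and had a score of 3. The PDCD4 site in the next window is the 4th nucleotide of the exon, at position 74449050, and had a score of 6. The other windows show that the PDCD4 sites of highest score in EGFR, TGFA, EREG and HBEGF were in introns, as was one of the pair that reached the highest score in ERBB2.

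The members as a group took a smaller share of the PDCD4 list than of the IgG list. They summed to 797 cDNAs with PDCD4 and 729 with IgG, or 19.5 and 26.4 per 10000. The log2 ratio of these shares, PDCD4 over IgG with 1 cDNA added to each sum, was -0.44 (interval -0.58 to -0.29), and the median over the 9594 genes with at least 10 cDNAs was -0.08. EGFR alone carried this value. Without it the other members stood at 0.48 (0.14 to 0.83), in the opposite direction, and without AREG the ratio was -0.56 (-0.71 to -0.41). The receptors together were at -0.60 (-0.76 to -0.44) and the ligands together at 0.42 (0.04 to 0.80), the latter from 164 and 82 cDNAs.

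**Figure D1:**
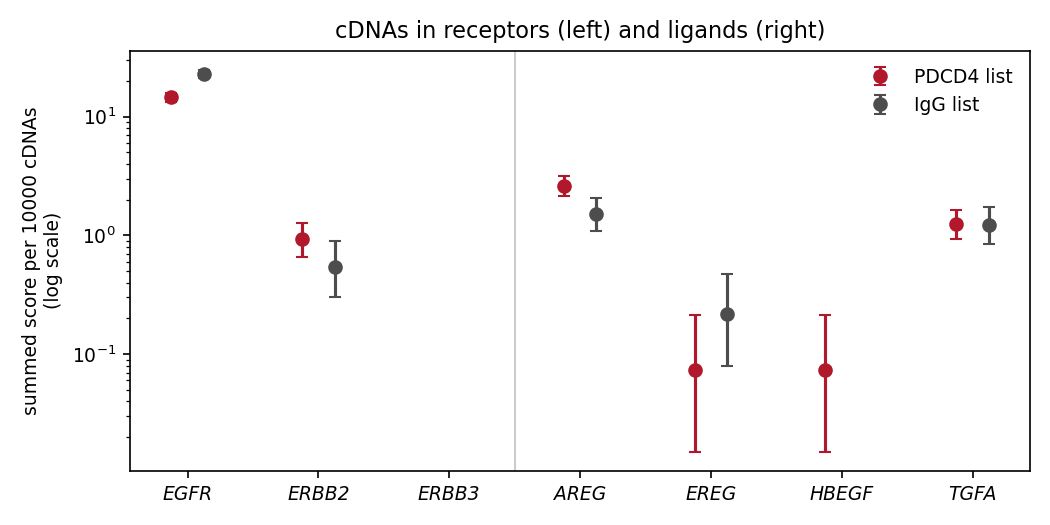
Summed score of each member per 10000 cDNAs of its list (log axis), in the PDCD4 list (red) and the IgG list (grey), with exact Poisson 95% intervals as bars. EGFR stands at 14.5 with PDCD4 and 22.9 with IgG, above all other members, AREG is next at 2.61 and 1.52, and ERBB3 and the IgG value of HBEGF have no point because no site is listed.

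The order of levels was the same in both lists for the genes with most cDNAs. EGFR was first with 14.5 per 10000 (13.4 to 15.8) with PDCD4 and 22.9 (21.1 to 24.7) with IgG. AREG followed with 2.61 (2.14 to 3.16) and 1.52 (1.10 to 2.06), then TGFA with 1.25 (0.928 to 1.64) and 1.23 (0.853 to 1.72), then ERBB2 with 0.928 (0.657 to 1.27) and 0.543 (0.304 to 0.896). The intervals of TGFA and ERBB2 overlapped in both lists, and those of AREG and TGFA overlapped in the IgG list but not in the PDCD4 list. EREG and HBEGF were at the bottom with 3 cDNAs each with PDCD4, and 6 and none with IgG. These levels grow with the length of the RNA, and the gene spans 193 kb for EGFR, 107 kb for TGFA, 42.5 kb for ERBB2 and 9.87 kb for AREG. Per kb of gene, AREG had the most sites with PDCD4 (4.15 against 1.30 for EGFR), whereas the IgG list held 1.32 sites per kb in AREG and 1.31 in EGFR.

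Of the 4 members with at least 10 cDNAs over both lists, AREG had an interval of the log2 ratio above 0, as did 18.0% of all genes, and EGFR had one below 0, as did 23.3%. With so few members, 1 in either direction is near those background shares and says nothing about the family. AREG was at 0.76 (0.25 to 1.27), which is 1.69 times its IgG share, from 107 and 42 cDNAs. EGFR was at -0.65 (-0.82 to -0.49), from 595 and 632 cDNAs. ERBB2 was at 0.72 (-0.12 to 1.56), from 38 and 15 cDNAs, and TGFA at 0.00 (-0.61 to 0.62), from 51 and 34. EREG had a ratio of -1.38 (-3.15 to 0.40) from 3 and 6 cDNAs. For ERBB2, TGFA and EREG a difference between the lists was not detectable at this depth over all their sites. Single region classes gave some intervals off 0. Intronic cDNAs over the intronic total of each list gave 1.37 (0.13 to 2.62) for ERBB2. Exonic cDNAs over the exonic total gave -1.30 (-2.39 to -0.21) for TGFA, from 12 and 13 cDNAs, and -0.81 (-2.00 to 0.38) for ERBB2. They gave -4.00 (-7.02 to -0.98) for EREG, from 0 and 6 cDNAs, where the size depends on the 1 cDNA added to each sum. HBEGF had 3 cDNAs with PDCD4 and none with IgG, and no ratio is given where neither list holds more than 3 cDNAs. A list of sites past a threshold does not show how many cDNAs fell below it. That limit holds for every ratio here, and it weighs most where a list holds few or no cDNAs of a gene or region.

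**Figure D2:**
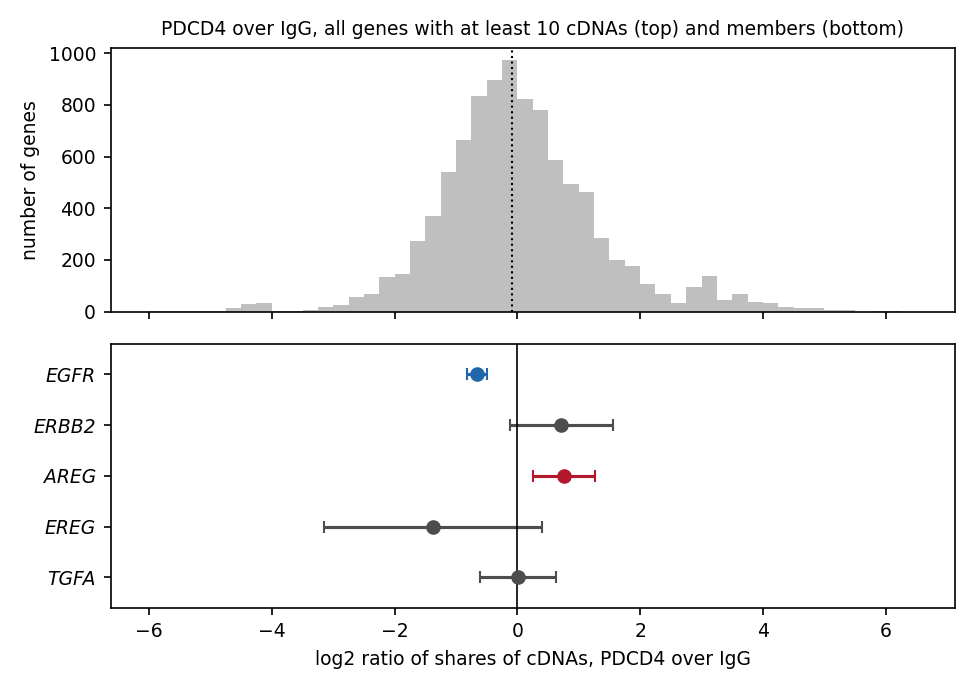
Log2 ratio of the shares of cDNAs, PDCD4 over IgG, as a histogram over the 9594 genes with at least 10 cDNAs (top, dotted line at their median of -0.08) and for the members with cDNAs in both lists (bottom, points with 95% counting intervals). AREG (red) lies above 0, EGFR (blue) below 0, and the intervals of ERBB2, EREG and TGFA (grey) hold 0; all 5 values lie within the spread of the histogram.

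High scores were rare among the members. AREG had 2 PDCD4 sites with a score over 5, both of them 6 and both in exon 3, at positions 74449050 and 74449170. At least 1 such PDCD4 site was found in 7.51% of all genes with a site. EGFR had 1 IgG site over 5, in intron 1, where 4.18% of genes had such an IgG site, and no other member had a site over 5 in either list. The mean score over the members' sites was 2.42 with PDCD4 and 2.54 with IgG, so most sites rested on a few cDNAs each.

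EGFR, the receptor for all 4 ligands of the group, had almost the same number of sites in both lists, 250 with PDCD4 and 252 with IgG. Its sites had the same make-up by region as well. Introns held 194 sites with PDCD4 (77.6%, 72.0 to 82.3) and 195 with IgG (77.4%, 71.8 to 82.1). The 3′UTR held 40 (16.0%, 11.98 to 21.1) and 46 (18.3%, 13.97 to 23.5), and coding sequence held 9 (3.6%, 1.91 to 6.70) and 5 (1.98%, 0.850 to 4.56). The remaining sites were 2 in the 5′UTR with PDCD4 and 5 and 6 in exons of non-coding transcripts.

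By length, the 3′UTR was the densest of the large regions of EGFR in both lists. It held 5.69 sites per kb with PDCD4 and 6.54 with IgG, against 1.10 sites per kb of intron in each list. Coding sequence had 2.23 and 1.24 sites per kb, from the few sites given above. Within the introns, intron 1, which makes up 67.3% of intronic length in the MANE transcript, held 155 of 201 PDCD4 sites (77.1%) and 152 of 207 IgG sites (73.4%). Intron 1 thus had 1.26 and 1.24 sites per kb and the other introns together 0.769 and 0.920. The highest score with PDCD4 was 5, and with IgG 6, both in the intron 1 windows printed above.

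Relative to the lists, both the introns and the 3′UTR of EGFR had a lower share with PDCD4. The log2 ratio was -0.66 (-0.84 to -0.48) for its introns, where the median gene was at -0.54, and -0.81 (-1.21 to -0.41) for its 3′UTR, where the median gene was at 0.17. Its coding sequence was at 0.17 (-0.86 to 1.20), where the median gene was at 1.02. When intronic cDNAs were divided by the intronic total of each list, the ratio of EGFR was -0.23 (-0.41 to -0.05), and exonic cDNAs over the exonic total gave -1.24 (-1.61 to -0.87). The direction was kept, and the size depended on which total was used. No EGFR position was in both lists, and 23 of the 250 PDCD4 sites (9.20%) lay within 20 nt of an IgG site. Over all genes, 721 positions were in both lists, although the methods state that IgG positions were subtracted from the PDCD4 samples before sites were called. The methods state no such step for the IgG samples. The part of the subtraction in the lack of shared EGFR positions, and in the ratios of PDCD4 over IgG, was not tested.

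**Figure D3:**
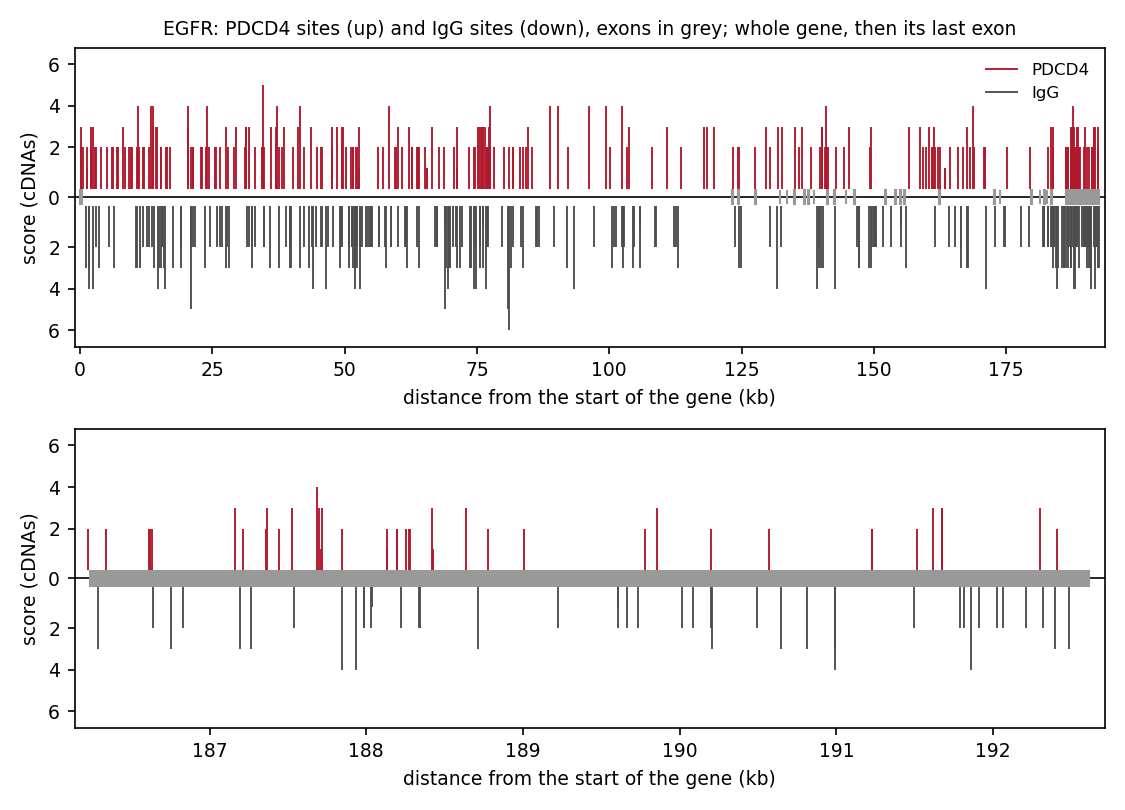
Score of each listed site along EGFR by distance from the start of the gene in kb, PDCD4 up and IgG down, with exons as grey boxes; the top panel is the whole gene and the lower panel its last exon, most of which is 3′UTR. Sites of both lists run through intron 1 and through the 3′UTR, with a highest score of 5 with PDCD4 and 6 with IgG.

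ERBB2, the partner receptor, had 15 sites with PDCD4 and 5 with IgG. With PDCD4, 5 were in coding sequence, 7 in introns, 2 in exons of non-coding transcripts and 1 in the 3′UTR of a transcript other than the MANE one. With IgG, 3 were in coding sequence and 2 in introns. The coding share was 33.3% (15.2 to 58.3) and 60.0% (23.1 to 88.2), intervals that overlap widely. The coding sites were spread from codon 262 to codon 1220 of 1255 with PDCD4 and from 236 to 1175 with IgG, and each had a score of 2 with PDCD4. No ERBB2 site lay within 20 nt of another in either list.

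AREG was the member whose sites differed in region between the lists. With PDCD4, 34 of its 41 sites were in coding sequence (82.9%, 68.7 to 91.5) and 3 were in introns. With IgG, 2 of its 13 sites were in coding sequence (15.4%, 4.33 to 42.2) and 9 were in introns (69.2%, 42.4 to 87.3). The other sites were 2 in the 5′UTR and 2 in an exon of a non-coding transcript with PDCD4, and 2 of the latter kind with IgG, which lie in intron 2 of the MANE transcript just before exon 3. The 5 PDCD4 sites of exon 6 are coding in other transcripts and 3′UTR in the MANE transcript, which leaves 29 coding sites by that transcript alone. Some sites were still near the other list. Within 20 nt of an IgG site lay 9 of the 41 PDCD4 sites (22.0%), against 9.20% in EGFR. Within 20 nt of a PDCD4 site lay 4 of the 13 IgG sites (30.8%), against 9.52% in EGFR.

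The difference in coding share of AREG was 67.5 percentage points (37.2 to 81.5). This interval takes each site as a separate draw, though 34 of its 41 PDCD4 sites lay within 20 nt of another. The difference with near sites merged was not computed for AREG alone. Among the 2996 genes with at least 10 sites in each list, the median difference was 6.21 points, the interval lay above 0 in 13.5%, and AREG stood at the 99.97th percentile. EGFR, with a difference of 1.62 points (-1.47 to 4.92), stood at the 35.3rd. In cDNAs, the coding sequence of AREG had 88 with PDCD4 and 6 with IgG, a log2 ratio of 3.10 (1.99 to 4.21), where the median of 2947 genes was 1.02. Its introns had 11 and 32, a log2 ratio of -2.03 (-2.98 to -1.07), where the median of 6915 genes was -0.54. AREG was thus at the 86.1st percentile for coding sequence and at the 7.58th for introns, further out than the median gene in both directions.

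The gap between those 2 ratios sets the coding cDNAs of a gene against its own intronic cDNAs, so that the abundance of the gene's RNA in a list cancels if coding and intronic RNA move together. It was 5.13 for AREG (3.66 to 6.59) on the log2 scale, against a median of 1.04 over 4378 genes, and 1.16% of them were at or above AREG. The same quantity was 0.83 (-0.22 to 1.88) for EGFR, -1.38 (-3.13 to 0.37) for ERBB2 and -0.86 (-4.93 to 3.21) for TGFA, which had no coding cDNA in either list. The interval of AREG did not overlap those of EGFR, ERBB2 and TGFA.

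**Figure D4:**
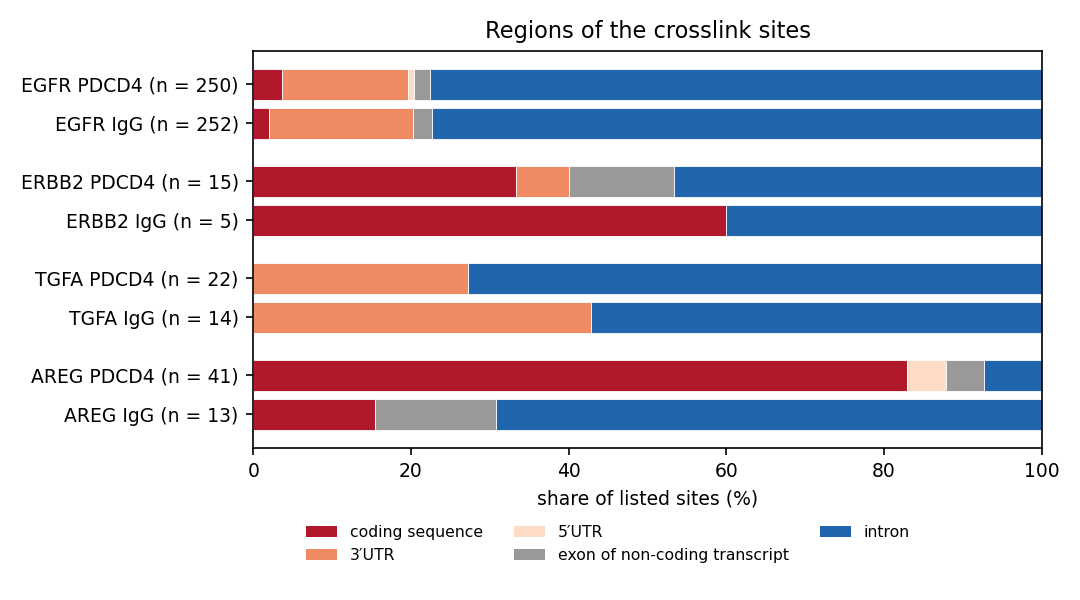
Share of listed sites in each region for the 4 members with at least 5 sites in each list, with the number of sites beside each bar. The 2 EGFR bars look alike (77.6% and 77.4% intronic), TGFA has no coding site, and AREG changes from 82.9% coding with PDCD4 to 69.2% intronic with IgG.

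Along AREG, PDCD4 sites were found in all 6 exons. There were 2 in exon 1, 2 in exon 2, 14 in exon 3, 6 in exon 4, 7 in exon 5 and 5 in exon 6. Exon 3 was the densest with 69.3 sites per kb and 37 cDNAs, followed by exon 5 with 62.5 and exon 4 with 39.2 per kb. The IgG list had 1 site in exon 4 and 1 in exon 5, and 11 sites spread over all 5 introns of the MANE transcript. In coding sequence as a whole AREG had 37.0 sites per kb with PDCD4 and 2.18 with IgG, and EGFR had 2.23 and 1.24.

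The PDCD4 sites of AREG lay close together. Of the 41, 34 (82.9%) were within 20 nt of another PDCD4 site, compared with 25.3% of all PDCD4 sites and 18.0% of those in EGFR. AREG held 4.15 PDCD4 sites per kb of gene and EGFR 1.30, and per kb of coding sequence they held 37.0 and 2.23. Sites packed into short exons have near neighbours wherever they fall, so these shares cannot be read apart from density. Clustering beyond the density was not tested. Neighbouring sites may come from the same crosslinked stretch, so 34 coding sites are not 34 separate contacts. In the protein of 252 residues, the 29 sites with a codon ran from codon 39 to codon 232. The EGF-like fold, found here by its pattern of cysteines at codons 146 to 181, held 6 of them, 15 lay before it and 8 after it. The released growth factor also holds residues outside this pattern, so these counts describe the fold and not the released part.

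Exons 3, 4 and 5 of AREG each had a PDCD4 site at their 4th nucleotide, and exon 6 had one at its 3rd. The IgG list also had a site at the 3rd nucleotide of exon 5, with a score of 3. In internal coding exons of 100 to 300 nt, 6 of the 29 AREG sites (20.7%, 9.85 to 38.4) were in the first 10 nt, against 10.6% over all genes with PDCD4 and 10.5% with IgG. With IgG, 1 of the 2 AREG sites in such exons was in the first 10 nt. The last 50 nt of such exons held 1 of the 29 sites (3.45%), against 4.29% over all genes with PDCD4 and 6.13% with IgG. Few sites near exon ends was thus a property of both lists, and its part in the pattern along AREG was not tested.

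**Figure D5:**
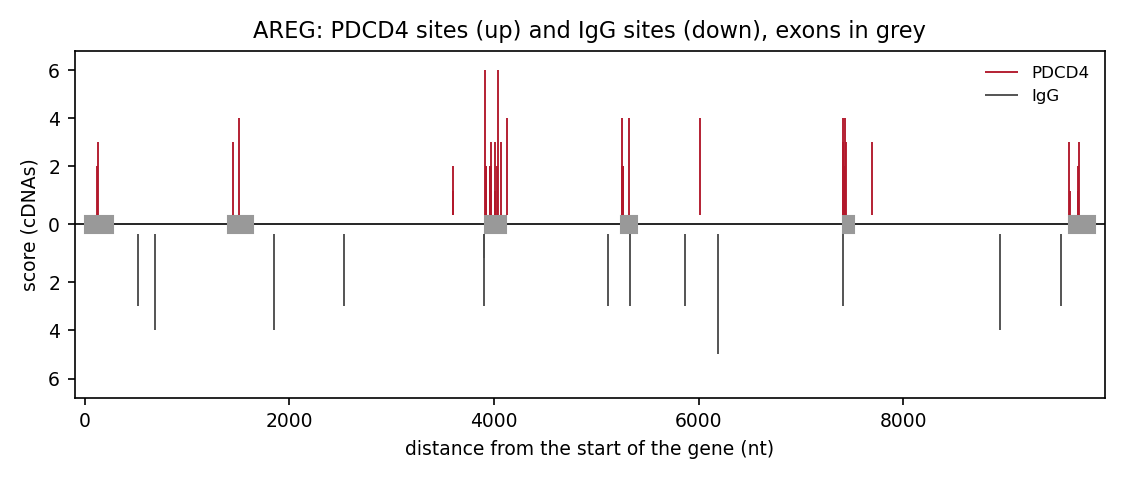
Score of each listed site along AREG by distance from the start of the gene in nt, PDCD4 up and IgG down, with the 6 exons of the MANE transcript as grey boxes. Most PDCD4 sites stand on the exons, with 2 of score 6 in exon 3, and 11 of the 13 IgG sites stand between them.

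TGFA, another ligand of EGFR, had 22 sites with PDCD4 and 14 with IgG and none in coding sequence. The 3′UTR held 6 in each list and introns held 16 and 8. The 3′UTR share was 27.3% (13.2 to 48.2) with PDCD4 and 42.9% (21.4 to 67.4) with IgG. In the introns, 4 of 16 PDCD4 sites were in intron 1 and 6 of 8 IgG sites were, at scores of 4 or less. EREG, whose gene lies near AREG on chromosome 4, had 1 PDCD4 site in intron 1 with a score of 3 and 3 IgG sites in its 3′UTR with a score of 2 each. HBEGF had its single site in intron 1, with a score of 3. These genes had too few sites for their regions to be compared.

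Over all members, 48 of 330 PDCD4 sites (14.5%, 11.1 to 18.8) and 10 of 287 IgG sites (3.48%, 1.90 to 6.29) were in coding sequence, a difference of 11.1 points (6.65 to 15.6). AREG decided this value, since without AREG it was 1.92 points (-1.43 to 5.36). All site labels of the lists had coding shares of 20.6% with PDCD4 and 9.54% with IgG. Both shares of the members were lower, and the gap between the lists was of similar size, so it is not particular to the members. With sites of a member within 20 nt merged into 1, the difference for all members was 5.60 points (1.45 to 9.93). Within the ligands the coding share was 52.3% (40.4 to 64.0) with PDCD4 and 6.67% (1.85 to 21.3) with IgG, all of it from AREG.

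Some further properties of the sites were compared. U was the crosslinked base at 45.5% (40.2 to 50.8) of member sites with PDCD4 and at 47.4% (41.7 to 53.2) with IgG, while all sites of the lists had 46.7% and 51.6%. In AREG with PDCD4 it was 41.5% (27.8 to 56.6), so no difference from the other sites was detectable. The 30 nt that follow a site occurred once in the genome for 324 of 330 PDCD4 sites and 281 of 287 IgG sites. None of the remaining sites was in an exon of the MANE transcript, and the AREG sites all had a unique sequence.

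The genes with a make-up by region most like that of a member were found by the distance between their shares of cDNAs in 5 region classes in both lists, over 2393 genes with at least 30 cDNAs in each list. For EGFR they were SFXN5 (distance 0.0522), RNF165 (0.0523) and PCSK6 (0.0536), where the median gene was at 0.420. For TGFA they were RP11-159D12.5 (0.0966), SLC23A2 (0.102) and CAPZB (0.134), with a median of 0.566. For AREG they were NUMA1 (0.224), ANKHD1 (0.228) and the readthrough gene ANKHD1-EIF4EBP3 (0.233), with a median of 0.984. The latter pair share sequence, so they are not separate genes in this comparison. NUMA1, which encodes a protein of the mitotic spindle poles, had 70.3% coding cDNAs with PDCD4 and 12.5% with IgG, compared with 82.2% and 14.3% in AREG.

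Genes around the receptors were described from lists of the pathway. Of 8 other EGF family receptors and ligands, 6 had a site and 3 had at least 10 cDNAs, and no interval of the 3 left 0. NRG1, a ligand of ERBB3, had 9 cDNAs with PDCD4 and 14 with IgG, EPGN had 6 and 6, and NRG4 had 5 and 6. Of 4 genes of ligand shedding with at least 10 cDNAs, 2 had an interval above 0 and 1 below, beside 18.0% and 23.3% of all genes. ADAM10, a protease that releases ligands, was at -0.91 (-1.45 to -0.37), ADAM17, the main protease for AREG and TGFA, at -0.57 (-1.44 to 0.30), and RHBDF2, a partner of ADAM17, at 1.48 (0.80 to 2.17).

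Among 23 measured adaptors and effectors, 5 had an interval above 0 and 6 below, near the 18.0% and 23.3% of all genes, with a median of -0.28. AKT1, a kinase downstream of PI3K, was at 0.92 (0.62 to 1.23) from 317 and 112 cDNAs. PTPN11, the phosphatase SHP2, was at 0.48 (0.13 to 0.82), and MAP2K1, the kinase MEK1, at 0.00 (-0.42 to 0.43). Among 12 measured feedback inhibitors, 1 had an interval above 0 and 7 below, beside 18.0% and 23.3% of all genes, with a median of -0.69. NF1, which turns RAS off, was at -0.89 (-1.25 to -0.54), RASA1, with the same activity, at -0.55 (-1.03 to -0.06), and CBL, the ubiquitin ligase of activated EGFR, at -0.06 (-0.58 to 0.46). The list was described by its counts and its median, and whether it differs from other genes was not tested.

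Of 11 genes of receptor endocytosis, 3 had an interval above 0 and 3 below, beside 18.0% and 23.3% of all genes, with a median of -0.34. RAB7A of late endosomes was at -0.34 (-0.73 to 0.04), the clathrin heavy chain CLTC at -0.62 (-1.02 to -0.23), and the adaptor subunit AP2B1 at 0.05 (-0.37 to 0.46). Of 10 measured receptor tyrosine kinases outside the family, 2 were above 0 and 2 below, near the 18.0% and 23.3% of all genes, with a median of 0.04. IGF1R, the receptor for insulin-like growth factors, was at -0.60 (-0.90 to -0.30) from 175 and 179 cDNAs, close to the value of EGFR. EPHA2, a receptor for ephrins, was at 0.45 (0.11 to 0.79), and MET, the receptor for hepatocyte growth factor, at -0.20 (-0.72 to 0.33).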

How the data were processed

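PDCD4 and IgG iCLIP was done in MCF10A cells, with 2 samples per group. The authors mapped reads to the genome of Ensembl release 88 and called crosslink sites with iCount. Per their methods, positions of the IgG samples were subtracted from the PDCD4 samples before sites were called, and replicates were merged. The deposited score column holds counts of cDNAs per site, not normalized. The methods' filter of scores over 5 was not applied in these lists (2354 PDCD4 and 768 IgG sites passed it). Totals were 409308 and 276139 cDNAs.

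Regions were set from GENCODE 44 on GRCh38 by the labelled gene, taking coding sequence first, then the 3′UTR, the 5′UTR, exons of non-coding transcripts and introns. The labelled gene was found for 99.5% of PDCD4 and 99.5% of IgG site labels. Log2 ratios used a pseudocount of 1 cDNA, and intervals were from counting error (shares by Wilson, share differences by Newcombe, levels by exact Poisson). Genes named were the 7 members, the 3 genes nearest to each member with at least 30 cDNAs in each list, and the 3 genes with most cDNAs of each pathway list. Members and lists were chosen with earlier results of these data known. Scripts ran in Python 3.11.15 (scipy 1.17.1, numpy 2.4.6, matplotlib 3.10.9, pandas 2.3.3) and were tested on simulated data.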

Additional observations from a re-analysis of the deposited data

How the results depend on the processing

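No paired analysis was possible because the lists pool the replicates of each group, and for the same reason no replicate could be left out. The lower share of EGFR with PDCD4 kept its direction and an interval below 0 in 13 of 13 alternatives, though with scores over 5 it rested on 1 IgG site. The ratio of all members was 0.026 (-0.27 to 0.32) with exonic sites alone, of opposite sign but with an interval that held 0. With exonic sites over the exonic total it was -0.60 (-0.89 to -0.30), in the main direction. Without EGFR it was 0.48, in the opposite direction, and with scores over 5 it was -1.06, where the interval held 0. The coding share difference of the members was 100 points with scores over 5 (-3.05 to 100, from 2 PDCD4 sites and 1 IgG site) and 1.92 without AREG. For the counts of members, each member with more than 3 cDNAs in at least 1 list was taken (sites, where sites were counted). This adds EREG to the 4 members counted in the Results, and both main counts stayed at 1. In the exonic settings EREG had 0 cDNAs with PDCD4 and 6 with IgG. The count of members above 0 was 0 with intronic sites alone and 0 with scores over 5. The count below 0 was 2 with exonic sites alone (EGFR and EREG), 2 with intronic sites alone and 2 with intronic sites over the intronic total (EGFR and AREG), and 3 with exonic sites over the exonic total (EGFR, EREG and TGFA). AREG was at -2.03 with intronic sites alone and -1.60 over the intronic total. ERBB2 was at -0.19 with exonic sites and -0.81 over the exonic total, but at 1.37 (0.13 to 2.62) over the intronic total, where it took the place of AREG as the member above 0. TGFA was at -0.67 and -1.30 in the same 2 settings, -0.046 with a pseudocount of 5 and -0.071 with scores of at least 2. The 2 settings that divide by the total of a region class and those without EGFR or AREG were chosen after seeing the data. The changes of sign under exonic or intronic sites alone come with the sites left in, and the cause of the others was not tested. With 38 and 15 cDNAs in ERBB2, and fewer in EREG and HBEGF, only large differences could be seen.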
